A study of Homo sapiens with 12 samples.

Results

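The genes followed here were GAS5, SNHG1, SNHG3, SNHG5, SNHG6, SNHG7, SNHG8, SNHG12, SNHG15 and SNHG16, a set of 10 long noncoding genes that host small nucleolar RNAs (snoRNAs). They were chosen by name, and each was found by its Ensembl identifier, giving 10 of the 60483 gene rows of each table. All 10 passed the filter on low counts and were among the 14822 genes tested. The cells were MCF10A, an immortalised, non-tumorigenic human mammary epithelial line, transduced with a Tet-inducible TAZ-4SA, a form of the Hippo pathway co-activator TAZ (gene WWTR1). Poly(A) RNA was sequenced from cells given no doxycycline (No Dox) and from cells kept in 0.05 µg/ml Dox for 24, 48 or 72 h, with 3 libraries in each of the 4 groups. Every group, No Dox included, carried the construct. There was no line without it and no Dox-treated line without TAZ-4SA, so Dox, TAZ-4SA and time in culture cannot be told apart. The study's question was how transcription changes over time once TAZ is switched on.

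A snoRNA host gene is transcribed as a long precursor, and its snoRNAs are released from the introns that splicing removes. The snoRNAs then guide the chemical modification and processing of ribosomal RNA, while the spliced exons of many noncoding hosts are exported, met by ribosomes and destroyed by nonsense-mediated decay. Many such hosts begin transcription at a run of pyrimidines (a 5′ terminal oligopyrimidine start), as ribosomal protein genes do, and GAS5 takes its name from its accumulation in growth-arrested cells. The libraries read the spliced, polyadenylated host RNA and not the snoRNAs. Of 24 snoRNA gene rows inside the hosts, 22 had an effective length of 0 in every library and 2, SNORA73A and SNORA73B in SNHG3, had any count, at most 1.26 in a library.

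Start-site sequences are shown because a pyrimidine run at the start is known for many such hosts and for ribosomal protein genes. The starts of ribosomal protein genes were not counted apart here. They are RefSeq start windows (GRCh38.p14), 30 bases on each side of the start, with capitals marking a C followed by at least 4 pyrimidines that begins within 10 bases of the start. Of the 10 hosts, 8 had a RefSeq window, and 5 of the 8 held such a tract, against 33.5% of all 35116 windows. SNHG5, SNHG12 and SNHG7, each with a tract, are printed, and only the longest tract of a window is in capitals. The tract marked in SNHG7 begins at -10 bases and ends before the start. It is part of a longer run that begins further upstream, and a shorter run over the start itself is left in lower case.
SNHG5: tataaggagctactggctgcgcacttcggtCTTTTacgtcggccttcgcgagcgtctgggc
SNHG12: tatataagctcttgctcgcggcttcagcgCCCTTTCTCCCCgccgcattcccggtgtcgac
SNHG7: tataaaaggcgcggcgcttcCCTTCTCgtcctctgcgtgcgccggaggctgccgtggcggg

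The RefSeq window of GAS5 held no tract within 10 bases of its start. The GENCODE canonical transcript of GAS5 starts downstream of it, and the window there (chr1:173867959-173868019, minus strand) was added after the files had been seen.
GAS5: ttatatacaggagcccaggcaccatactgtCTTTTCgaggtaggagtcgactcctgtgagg
At GENCODE canonical starts, 6 of the 10 hosts (GAS5, SNHG1, SNHG7, SNHG8, SNHG12 and SNHG16) held a tract, against 32.7% of 14653 tested genes with such a start. A tract by these letters is therefore common among expressed genes.

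Total expected counts ran from 15382564 to 26570132 per library, and the hosts together took 0.114 to 0.125% of them. WWTR1 averaged 887 ± 68.1, 844 ± 73.6 and 994 ± 59.3 CPM (counts scaled to library size) at 24, 48 and 72 h against 71.7 ± 2.88 CPM without Dox (SD, n = 3 each), a check of the labels. The epithelial markers KRT5, KRT14, KRT17, KRT18, CDH1 and EPCAM were all detected, but their levels differed between groups. KRT5 averaged 1651 CPM at 72 h against 3521 CPM without Dox, KRT17 600.4 CPM against 2366 CPM, and KRT18 1920 CPM against 368 CPM. KRT14 was low, at 21.2 CPM at 24 h and 10.2 CPM at 72 h against 11 CPM without Dox. CDH1 averaged 180 CPM at 24 h and 335 CPM at 72 h against 220 CPM without Dox. The leukocyte markers PTPRC, CD3E and LYZ were at or near 0, and the fibroblast markers COL1A2 and PDGFRA were at 0 in every library. Fibroblast marker COL1A1 was detected in every group, at a mean of 1.80 CPM at 72 h against 4.42 CPM without Dox. LUM, also a fibroblast marker, averaged 0.0835 CPM at 72 h against 0.400 CPM without Dox. TP63, a basal epithelial factor, averaged 1.49 CPM at 72 h against 77.4 CPM without Dox, and DCN, another fibroblast marker, 0.0626 CPM at 72 h against 50.1 CPM without Dox. The endothelial marker PECAM1 averaged 0.0417 CPM at 72 h against 6.45 CPM without Dox, while CDH5 was near 0 throughout. Mitochondrial ribosomal RNA took 0.169 to 0.244% of counts in the 9 Dox libraries against 0.786 to 0.829% in the 3 No Dox libraries. The part of these differences in the host results was not tested. In bulk RNA, a change in the share of cells of one kind and a change in RNA per cell cannot be told apart.

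The hosts did not move together. At 24 h in Dox, SNHG1, SNHG3, SNHG12 and SNHG15 rose, GAS5, SNHG5, SNHG6, SNHG7 and SNHG8 fell, and SNHG16 did not pass the test. Levels are given in TPM, abundances scaled per transcript length and per library. Changes are log2 fold changes of counts from edgeR's quasi-likelihood test, with Benjamini-Hochberg adjusted p over all 14822 genes, and a gene was called when that p was under 0.05 and its log2 change was 1 or more in either direction. At 24 h against No Dox, 1 host was called higher (SNHG1) and 0 lower, where 12% of all genes were called higher and 17.7% lower. By adjusted p alone 4 hosts were higher and 5 lower at 24 h, with 37.1% of all genes higher and 38.1% lower. At 48 h, 0 hosts were called in either direction, against 10.6% of genes higher and 14.4% lower. By adjusted p alone 2 were higher and 4 lower at 48 h (36.0% and 35.8% of all genes). At 72 h, 0 hosts were called higher and 1 lower (SNHG7), against 10.2% and 12.3% of all genes. By adjusted p alone 2 were higher and 3 lower at 72 h (34.3% and 34.8% of all genes). Each of these counts by adjusted p lay within 2 hosts of what the share of all genes gives for 10 genes. The 3 comparisons use the same No Dox libraries and are not independent. The median change of the hosts was -0.13, -0.02 and -0.08 at 24, 48 and 72 h, beside -0.03, -0.01 and -0.02 for all genes and -0.48, -0.32 and -0.22 for the 1413 long noncoding genes tested.

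**Figure D1:**
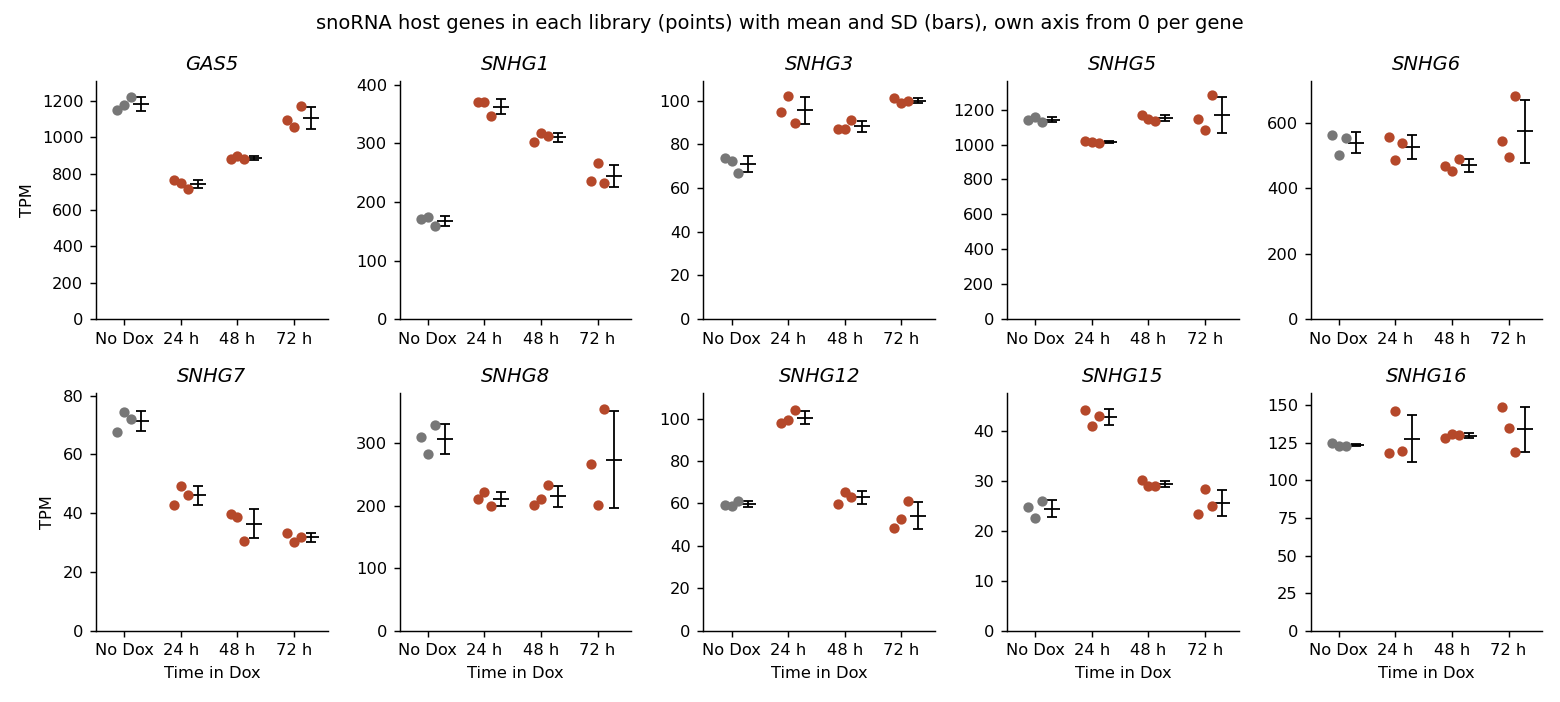
Level of each host in every library, in TPM, by time in Dox, with a separate axis from 0 for each gene. Points are libraries, and bars give the mean and SD of 3. GAS5 is lowest at 24 h, where SNHG1, SNHG12 and SNHG15 are highest, and SNHG7 lies lower at every Dox time than in all 3 No Dox libraries.

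GAS5, host of 11 RefSeq snoRNAs of the box C/D and H/ACA kinds (chr1:173858559-173868882, minus strand), fell early and then came back. It stood at 1147, 1177 and 1221 TPM without Dox, at 762, 747 and 716 TPM at 24 h, at 881, 898 and 880 TPM at 48 h, and at 1093, 1054 and 1173 TPM at 72 h. The 24 h and 48 h libraries all lay below the No Dox libraries, and those of 72 h overlapped them. The mean at 24 h was 0.627 of the No Dox mean in TPM. In counts the change was -0.41 ± 0.05 (SE, adjusted p = 3.2e-07) at 24 h and -0.22 ± 0.05 (adjusted p = 5.5e-04) at 48 h, while at 72 h it was -0.02 ± 0.05 (adjusted p = 0.76). With RSEM effective lengths in the model the 3 changes were -0.73, -0.49 and -0.19, with adjusted p of 2.1e-07, 1.6e-05 and 0.025.

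SNHG1 (chr11:62851978-62855953, minus strand), host of the SNORD22 and SNORD25 to SNORD31 cluster, had the largest rise of the set in edgeR at each of 24, 48 and 72 h. Its level was 171, 174 and 159 TPM without Dox, 370, 371 and 347 TPM at 24 h, 302, 317 and 312 TPM at 48 h, and 235, 266 and 232 TPM at 72 h. All 9 Dox libraries were above all 3 No Dox libraries, and the 3 times did not overlap each other. The change was 1.10 ± 0.05 at 24 h (adjusted p = 1.5e-14), 0.78 ± 0.05 at 48 h (adjusted p = 5.9e-12) and 0.51 ± 0.05 at 72 h (adjusted p = 7.1e-09). Its share of the summed host TPM was 11.1% at 24 h against 4.55% without Dox, while that of GAS5 was 22.7% at 24 h against 32% without Dox.

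SNHG12 and SNHG15 rose at 24 h and did not pass the test at 72 h. SNHG12, on chromosome 1 with 4 RefSeq snoRNAs, read 59.4, 58.6 and 61.2 TPM without Dox, 98.1, 99.3 and 104 TPM at 24 h, 59.7, 65.7 and 63.2 TPM at 48 h, and 48.7, 52.8 and 61.1 TPM at 72 h. In TPM only the SNHG12 libraries of 24 h stood clear of No Dox, while in CPM those of 48 h did too. The 24 h change of SNHG12 was 0.81 ± 0.08 in counts (adjusted p = 1.0e-08). SNHG15, host of SNORA9 on chromosome 7, read 24.8, 22.6 and 25.9 TPM without Dox, 44.2, 41.1 and 43.1 TPM at 24 h, 30.1, 29.0 and 29.0 TPM at 48 h, and 23.3, 28.4 and 24.9 TPM at 72 h. Its 24 h change was 0.56 ± 0.08 in counts (adjusted p = 1.8e-06). Its 48 h libraries were also above No Dox in TPM (0.26, limma adjusted p = 0.012), but the change in counts was 0.02 (adjusted p = 0.82). At 48 h SNHG12 changed by 0.18 (adjusted p = 0.056), and 6 of the 12 fits that left out 1 library put that p under 0.05, those without 24 h replicate 2 or 3, 48 h replicate 1, or any of the 72 h libraries. At 72 h the changes were -0.13 ± 0.08 for SNHG12 (adjusted p = 0.19) and -0.06 ± 0.08 for SNHG15 (adjusted p = 0.56). Without 72 h replicate 3, the 72 h change of SNHG12 was -0.24 (adjusted p = 0.014), and it was -0.07 without 72 h replicate 1 or replicate 2.

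SNHG3, host of SNORA73A and SNORA73B (chr1:28505980-28510892, plus strand), was higher at all 3 times. It read 73.9, 72.4 and 66.7 TPM without Dox, 94.8, 102 and 89.6 TPM at 24 h, 86.8, 86.8 and 91.1 TPM at 48 h, and 101, 98.8 and 99.8 TPM at 72 h. All 9 Dox libraries were above those without Dox, and the changes were 0.43, 0.28 and 0.43, each ± 0.05 (adjusted p = 4.2e-07, 1.2e-04 and 5.1e-07). SNHG3 shares exons on the same strand with RCC1, a chromatin-bound nucleotide exchange factor for Ran. RCC1 averaged 209 ± 8.98 CPM at 24 h against 90.8 ± 1.46 CPM without Dox, a change of 1.2 ± 0.05, and the changes were 0.83 and 0.82 at 48 and 72 h. RSEM's posterior SD for shared reads was at most 0.77 counts for SNHG3 and 0 for the other 9 hosts.

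SNHG7 (chr9:136721366-136728184, minus strand), which carries SNORA17A and SNORA17B, had a lower mean at each later time. It read 67.7, 74.6 and 72.1 TPM without Dox, 42.7, 49.4 and 46.1 TPM at 24 h, 39.7, 38.8 and 30.7 TPM at 48 h, and 33.3, 30.1 and 32 TPM at 72 h. All 9 Dox libraries were below the No Dox libraries. Those of 48 h and 72 h overlapped, and the edgeR change between these times was -0.27 ± 0.09 (adjusted p = 0.027). The count changes were -0.27 ± 0.08 (adjusted p = 0.0069), -0.76 ± 0.09 (adjusted p = 1.1e-07) and -1.02 ± 0.09 (adjusted p = 1.4e-09). The 72 h value passed the fold threshold narrowly, and did not with no filter on low counts (-0.99), without No Dox replicate 2 (-0.996) or without 72 h replicate 2 (-0.97). With effective lengths in edgeR the changes were -0.69, -1.04 and -1.26, so that SNHG7 would also be called at 48 h.

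SNHG8, host of SNORA24 on chromosome 4, was lower at all 3 times in counts. It read 310, 282 and 330 TPM without Dox, 210, 222 and 199 TPM at 24 h, 201, 210 and 233 TPM at 48 h, and 266, 201 and 355 TPM at 72 h. The 72 h libraries were spread over the whole range of the others. The changes were -0.70, -0.63 and -0.49, each ± 0.09 (adjusted p = 3.5e-07, 1.7e-06 and 4.0e-05). At 72 h the test was lost with effective lengths in edgeR (-0.25, adjusted p = 0.20) or DESeq2 (-0.26, adjusted p = 0.21). It was also lost with limma on log2(TPM + 1) (-0.20, adjusted p = 0.27). The 72 h change passed in 10 of 14 alternative settings and in 12 of 12 fits that left out 1 library.

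SNHG5 moved little, while SNHG6 was lower in counts by amounts that depended on the fit. SNHG5, host of SNORD50A and SNORD50B and with GAS5 the most abundant of the set, read 1139, 1160 and 1132 TPM without Dox, 1018, 1015 and 1009 TPM at 24 h, 1171, 1149 and 1134 TPM at 48 h, and 1144, 1083 and 1285 TPM at 72 h. Its 24 h libraries alone lay below No Dox, with a change of -0.22 ± 0.06 (adjusted p = 0.0015). SNHG6, host of SNORD87 on chromosome 8, read 563, 503 and 554 TPM without Dox, 557, 486 and 538 TPM at 24 h, 469, 453 and 491 TPM at 48 h, and 545, 496 and 682 TPM at 72 h. In counts SNHG6 fell by 0.21, 0.41 and 0.24 on the log2 scale at 24, 48 and 72 h (adjusted p = 0.017, 5.3e-05 and 0.0086). The 48 h libraries of SNHG6 lay below all those without Dox in both TPM and CPM. The 24 h test was lost without No Dox replicate 1 (adjusted p = 0.080) or 24 h replicate 2, and the 72 h test without 72 h replicate 1 or replicate 2 (adjusted p = 0.064 and 0.073). None of the 3 passed with effective lengths in edgeR or with limma on TPM, and at 72 h the sign turned on the TPM scale (0.08, limma adjusted p = 0.52).

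SNHG16, host of SNORD1A, SNORD1B and SNORD1C on chromosome 17, read 125, 123 and 123 TPM without Dox, 118, 146 and 119 TPM at 24 h, 128, 131 and 130 TPM at 48 h, and 149, 135 and 119 TPM at 72 h. Its changes were -0.05, 0.01 and -0.11, each ± 0.07, with adjusted p of 0.46, 0.94 and 0.15. Its 72 h change rested on single libraries, at -0.21 (adjusted p = 0.0034) without 72 h replicate 1 and -0.03 (adjusted p = 0.70) without 72 h replicate 3. In the test of all 3 times together it was the 1 host that did not pass (adjusted p = 0.31), where 9 of 10 hosts and 86.3% of all genes did. With the fold threshold as well, 2 hosts (SNHG1 and SNHG7) and 35.9% of all genes were called in that test.

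**Figure D2:**
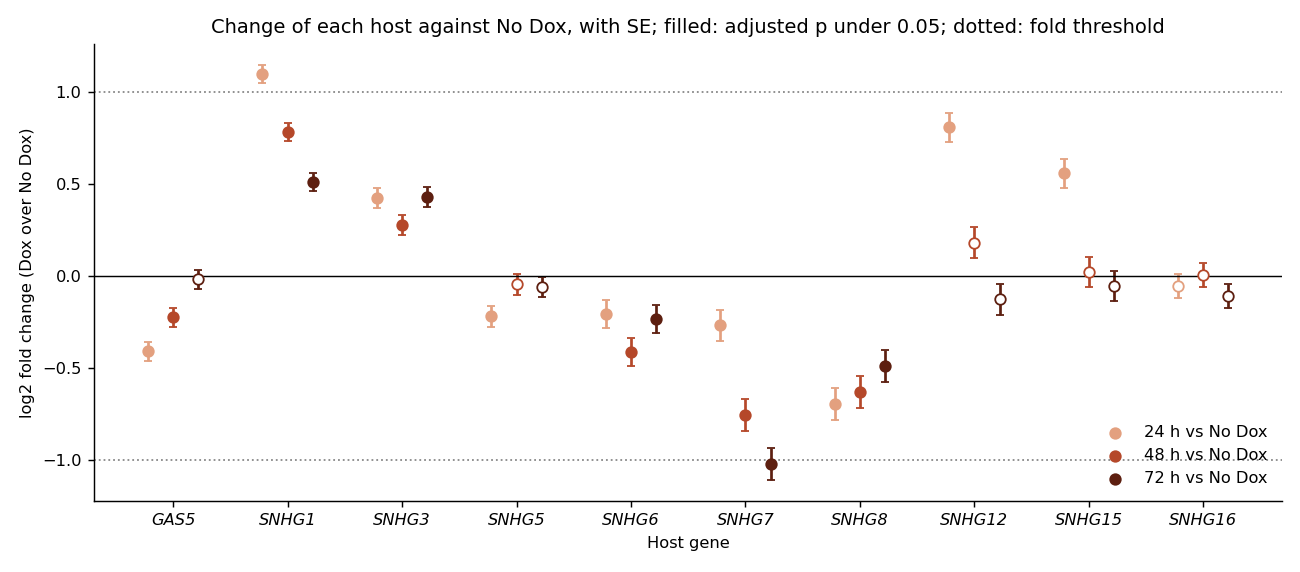
log2 fold change of counts of each host at 24, 48 and 72 h against No Dox (edgeR), with SE. Filled points have an adjusted p under 0.05 and dotted lines mark the fold threshold of 1, which SNHG1 passes at 24 h (1.10) and SNHG7 at 72 h (-1.02).

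The summed level of the hosts was lower at 24 h and 48 h in TPM, and moved little in CPM. GAS5 and SNHG5 took the largest shares of the TPM sum. The GAS5 mean was 741 TPM at 24 h against 1182 TPM without Dox. The part of each host in the change of the sum was not tested. The sum was 3268 ± 52.9 TPM at 24 h, 3381 ± 13.0 TPM at 48 h and 3716 ± 317 TPM at 72 h, with 3691 ± 48.7 TPM without Dox. The sums of the 24 h and 48 h libraries lay below those without Dox, with a 2-sided exact permutation p of 0.1 each, the smallest that 3 against 3 allows, and at 72 h p was 1.0. In CPM, which ignores length, the sums were 1210 ± 16.6, 1168 ± 23.9 and 1192 ± 73.3 at 24, 48 and 72 h against 1187 ± 18.5 without Dox (exact permutation p = 0.2, 0.3 and 1.0).

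The Dox times were also compared with each other. From 24 h to 48 h, GAS5 and SNHG5 were higher at 48 h by adjusted p alone and SNHG1, SNHG3, SNHG6, SNHG7, SNHG12 and SNHG15 were lower, that is 2 and 6 of 10 against 18.3% of all genes in each direction. At 72 h against 48 h, GAS5 and SNHG3 were higher and SNHG1, SNHG7 and SNHG12 lower, that is 2 and 3 of 10 against 18.6% and 20.1% of all genes. At 72 h against 24 h, GAS5, SNHG5 and SNHG8 were higher and SNHG1, SNHG7, SNHG12 and SNHG15 lower, that is 3 and 4 of 10 against 30.5% and 30.2% of all genes. The counts of higher hosts in these steps were small and depended on single libraries. Without 24 h replicate 3, 0 hosts were higher at 48 h, and it was 1 without 24 h replicate 1, 48 h replicate 1 or 48 h replicate 2. For 72 h against 48 h it was 4 without 72 h replicate 2, and 1 without 48 h replicate 2, 48 h replicate 3 or 72 h replicate 3. Without 72 h replicate 3 the 3 hosts higher at 72 h than at 24 h became 1, and SNHG12 was called lower (-1.06). No step took a host past the fold threshold in edgeR with all libraries. By both criteria 3.08% of genes were called higher and 1.44% lower at 48 h against 24 h, 2.30% and 0.938% at 72 h against 48 h, and 8.28% and 3.99% at 72 h against 24 h.

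Across the 12 libraries the profiles of the hosts fell on opposite sides, given here as a description, since points of a group share their treatment. SNHG12 and SNHG15 had the highest Pearson correlation of log2 CPM of any pair of hosts (r = 0.93), followed by GAS5 and SNHG5 (r = 0.82). The lowest were SNHG1 with SNHG8 (r = -0.88) and GAS5 with SNHG1 (r = -0.86). Outside the set, the genes most like GAS5 were IFITM2, TRAF3IP2 and IGIP (r = 0.97, 0.97 and 0.96). Those most like the mean of the standardised hosts were UQCR11, ALG2, MRPS21, MT-ND3 and NDUFA4 (r = 0.93, 0.91, 0.90, 0.89 and 0.89). That mean was taken over hosts with opposite profiles, so likeness to it is not likeness to each host.

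The RSEM gene length, a mean over transcripts weighted by their estimated abundance, changed for several hosts. For GAS5 it was 725, 748 and 738 nt at 24 h, 719, 718 and 716 nt at 48 h and 690, 694 and 683 nt at 72 h, with 648, 650 and 638 nt without Dox. The No Dox libraries had the shortest GAS5 of the 12. The gap was widest at 24 h (92.0 nt) and narrowest at 72 h (43.5 nt), in the same order as the fall of GAS5 in counts. TPM is itself scaled by length. SNHG7 averaged 1051 ± 27.1, 979 ± 18.7 and 954 ± 27.7 nt at 24, 48 and 72 h against 858 ± 18 nt without Dox, also without overlap. For SNHG7 the order was the reverse, with the widest gap at 24 h, where its fall in counts was smallest. Whether length and level are linked was not tested. SNHG15 was shorter at 24 h, at 1304 ± 30.8 nt against 1467 ± 96.2 nt without Dox. SNHG6 was shorter at 72 h, at 442 ± 6.69 nt against 476 ± 7.03 nt without Dox. In all, 4 hosts were longer and 1 shorter without overlap at 24 h, 4 and 1 at 48 h, and 2 and 3 at 72 h, while 5 overlapped No Dox at each time. The share of all genes without overlap in length was not counted, so these counts cannot be read as particular to the hosts. Each of these differences without overlap has an exact permutation p of 0.1 (2-sided), the smallest 3 against 3 can give. The length depends on the annotated transcripts, and which transcripts changed cannot be read from gene-level tables.

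**Figure D3:**
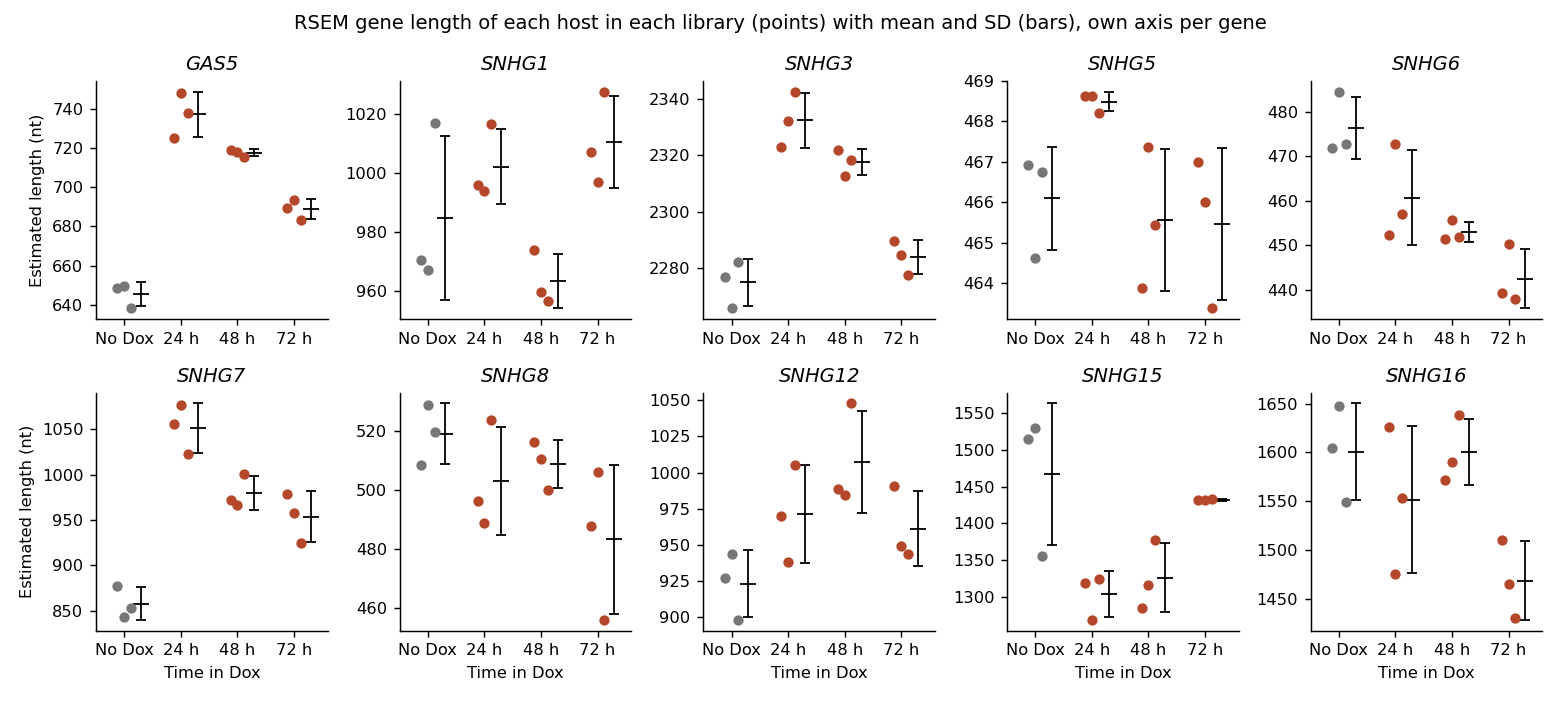
RSEM gene length of each host in nt in every library, by time in Dox, with a separate axis for each gene that does not start at 0. Points are libraries and bars the mean and SD of 3. GAS5 and SNHG7 are longer in all 9 Dox libraries than in the 3 No Dox libraries.

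Genes that neighbour or overlap the hosts were read in the same fit. ZBTB37, a zinc finger gene, starts on the opposite strand 391 nt from the GENCODE canonical start of GAS5, within the GAS5 span given above. It averaged 12 ± 3.19, 17.6 ± 1.99 and 26.4 ± 4.06 CPM at 24, 48 and 72 h against 21.4 ± 1.13 CPM without Dox. Its changes were -0.83 (adjusted p = 2.2e-05), -0.29 (adjusted p = 0.067) and 0.29 (adjusted p = 0.055). PRSS12, antisense to SNHG8 exons, was lower at 24, 48 and 72 h (-0.48, -0.54 and -0.29), as SNHG8 was. TRNAU1AP, antisense to SNHG12, was higher at 24 h (0.34, adjusted p = 0.0012) and lower at 72 h (-0.24, adjusted p = 0.020). An unnamed gene that shares exons with SNHG5 on the same strand, ENSG00000271793, was at 2.11 ± 0.217 CPM at 24 h against 1.07 ± 0.132 CPM without Dox. The kit marks strand, but the strand setting of the counting is not given in the sources used here. Without it, reads of antisense partners cannot be told apart.

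The RefSeq windows, 250 bases before to 50 after the start, were searched on both strands for 3 motifs that are letters of known factors. GGAATG, the core letters bound by TEAD factors through which TAZ reaches DNA, was in SNHG3 and SNHG12 and in 14.0% of all windows. It is given in capitals as it reads on the gene's strand, CATTCC, with SNHG3 at chr1:28505820-28505849 and SNHG12 at chr1:28581841-28581870. These begin at -111 bases from the SNHG3 start and at 15 from that of SNHG12. Another CATTCC of SNHG3, at 40 bases from its start (chr1:28505971-28505992), is not printed.
SNHG3: ttctgtaacgtaCATTCCccagcaaggtcc
SNHG12: ttctccccgccgCATTCCcggtgtcgactt
CACGTG, the E-box letters bound by MYC and related factors, was in SNHG7 (chr9:136728289-136728318) and in 7.26% of all windows.
SNHG7: ctgagcagcgccCACGTGcgggcgcgggga
TGACTCA, the AP-1 letters, was in 0 of the 8 windows and in 4.95% of all windows.

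The related gene lists were chosen with earlier results of these data known, and they are described by counts and medians only. Of 20 other noncoding snoRNA hosts, 18 were tested. At 24 h 4 of them were higher and 12 lower by adjusted p, with a median of -0.62. At 48 h 3 were higher and 7 lower (median -0.27), and at 72 h 0 and 8 (median -0.25). EPB41L4A-AS1 was named by rule, with 17.1 ± 2.87 CPM at 72 h against 38.1 ± 0.937 CPM without Dox, a change of -1.15 ± 0.10 (adjusted p = 8.8e-10). A further 4 hosts are named after their values were seen. SNHG29 and ZFAS1, abundant hosts, fell by 0.97 and 0.96 on the log2 scale at 24 h, and SNHG32 by 1.22. SNHG17 rose at 24 h by 0.97, at 25.1 ± 2.33 CPM against 12.8 ± 0.333 CPM without Dox, and at 72 h its change was -0.01 (adjusted p = 0.93). The other hosts thus also held members that moved in each direction at 24 h.

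Among 27 protein-coding genes that carry snoRNAs in their introns, 16 were higher and 7 lower at 24 h (median 0.44), 17 and 8 at 48 h (median 0.35), and 14 and 8 at 72 h (median 0.13). PRRC2A rose by 1.77 ± 0.04 and SNX5, a sorting nexin, by 1.03 ± 0.04 at 72 h, the 2 called there. Of 18 genes for snoRNP core and assembly proteins, which package the snoRNAs, 15 were higher and 0 lower at 24 h with a median of 0.81, 17 and 0 at 48 h (0.63), and 13 and 1 at 72 h (0.34). NOLC1, a nucleolar chaperone of snoRNPs, rose by 0.61, 0.50 and 0.34 at the 3 times, and FBL, the C/D methyltransferase fibrillarin, by 0.32, 0.29 and 0.21. At 24 h 3 of these genes were called, namely NOP56 (1.25), NOP58 (1.18), both C/D core proteins, and GAR1 (1.06), an H/ACA core protein. NOP56 is also in the list of protein-coding hosts.

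Genes of nonsense-mediated decay, which degrades many spliced hosts, were mixed. Of 18, 11 were higher and 3 lower at 24 h (median 0.28), 7 and 5 at 48 h (0.09), and 8 and 6 at 72 h (0.03). MAGOHB, an exon junction protein, rose by 1.23 ± 0.11 at 72 h. Cytosolic ribosomal protein genes are known for a pyrimidine start, which was not counted for them here. Of 83 tested, 6 were higher and 71 lower at 24 h, 7 and 69 at 48 h, and 5 and 68 at 72 h. Their medians were -0.39, -0.40 and -0.39. RPL26L1, a paralog of RPL26, rose by 1.07 ± 0.07 at 72 h against that direction. Beside these medians GAS5 was at -0.41, -0.22 and -0.02 at 24, 48 and 72 h, and with effective lengths in edgeR it was at -0.19 at 72 h. The difference between GAS5 and these genes was not tested.

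**Figure D4:**
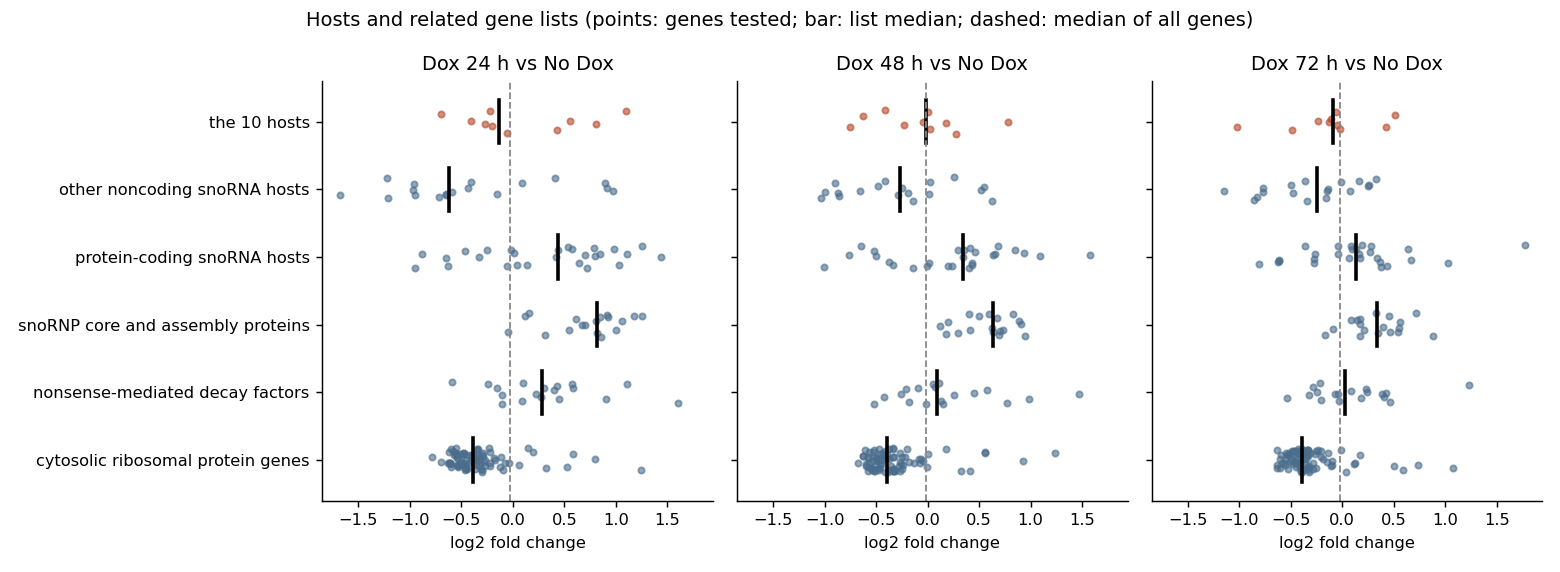
log2 fold change (edgeR) of each tested gene at 24, 48 and 72 h against No Dox, for the 10 hosts and 5 related lists. Bars are list medians and dashed lines the median of all genes. The hosts lie on both sides of 0, snoRNP proteins mostly above it (median 0.81 at 24 h) and ribosomal protein genes mostly below it (-0.39).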

How the data were processed

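By the study's methods, 12 poly(A)-selected, strand-marked, paired 100-base libraries were sequenced. Reads were placed by the authors on GRCh38 using STAR with GENCODE version 22, and RSEM gave gene levels. For STAR and RSEM the version is not given in the sources used here. The deposited tables hold RSEM expected counts, which share reads between genes and need not be whole, and deposited TPM, scaled per length and per library by the authors. Deposited gene length and effective length were also read, and FPKM was not used.

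Expected counts were rounded, filtered with filterByExpr, scaled by TMM and tested with edgeR 4.0.16 (R 4.3.3, quasi-likelihood, 12 libraries, group means), and the call needed a p under 0.05 after Benjamini-Hochberg adjustment and a log2 change of 1 or more either way. The fit was tested on simulated data. Alternatives were other scalings, filters, effective lengths, DESeq2 1.42.0, limma 3.58.1 on log2(TPM + 1), glmTreat at 1.2-fold, a replicate block and each library left out. Lengths and sums were compared by exact permutation (scipy 1.17.1).

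Symbols came by Ensembl identifier from GENCODE version 44 and RefSeq (56321 of 60483 rows matched a name). Coordinates are those of GENCODE version 44, on the same build. The hosts and all lists were chosen with earlier results of these data known. All 10 hosts were named. From each list up to 4 called genes with the largest change at 72 h and at least 5 CPM were named, or the 2 most abundant where none was called. Neighbours were genes starting within 2 kb on the opposite strand or sharing exons on the same strand. Genes overlapping exons on the opposite strand were added after the data were seen, and likeness used genes of at least 10 CPM. The labels do not say whether replicates came from separate cultures, so p measures only the spread between these samples. A neighbour of a host is not reported here.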

Additional observations from a re-analysis of the deposited data

Results flagged for a closer look

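For 7 of the 10 hosts the effect at 72 h differed from that at 24 h, tested as the 72 h against 24 h contrast in edgeR with Benjamini-Hochberg adjusted p over all genes. By the same test 30.5% of all genes were higher and 30.2% lower at 72 h than at 24 h, so 7 of 10 is near the share of all genes. The effect was larger or less negative at 72 h for GAS5 (0.39, adjusted p = 1.3e-06), SNHG5 (0.16, adjusted p = 0.019) and SNHG8 (0.21, adjusted p = 0.047), given as the log2 fold change at 72 h minus that at 24 h. It was smaller or more negative for SNHG12 (-0.93, adjusted p = 3.5e-09), SNHG7 (-0.75, adjusted p = 3.4e-07), SNHG15 (-0.61, adjusted p = 1.0e-06) and SNHG1 (-0.59, adjusted p = 1.5e-09). For SNHG8 the adjusted p was 0.057 without No Dox replicate 2 and 0.093 without 72 h replicate 1, and the difference was 0.07 (adjusted p = 0.48) without 72 h replicate 3, where SNHG5 was 0.09 (adjusted p = 0.19). That library had the highest 72 h TPM of GAS5, SNHG5, SNHG6, SNHG8 and SNHG12 and the largest total, 26570132 counts. The part of depth in this was not tested.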

How the results depend on the processing

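Against a 1.2-fold change (glmTreat), 4 hosts were higher and 2 lower at 24 h, 1 and 3 at 48 h, 2 and 2 at 72 h, 3 lower at 48 h against 24 h, and 1 higher and 4 lower at 72 h against 24 h. The shares of all genes were not counted for glmTreat or the other fits of this section. These counts show only how the host counts depend on the setting. With effective lengths in edgeR or DESeq2, 1 host was called lower at 48 h, 1 passed adjusted p as higher at 48 h and at 72 h against 24 h, and 1 as lower at 72 h against 48 h. In that last step 1 was higher in edgeR with effective lengths. No filter left 0 called lower at 72 h. With limma (both pseudocounts) 1 host passed as lower at 72 h against No Dox and 1 at 72 h against 48 h.

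Some changes turned sign, among them that of SNHG6 at 72 h, which had passed the test at -0.24. With limma (pseudocounts 1 and 0.1) SNHG16 was 0.041 and 0.042 at 24 h and 0.110 and 0.111 at 72 h, SNHG5 was 0.0098 at 48 h and 0.031 at 72 h with both, SNHG6 was 0.077 at 72 h with both, and SNHG15 was 0.059 and 0.061 at 72 h. With effective lengths SNHG12 at 48 h was -0.0054 in edgeR and -0.020 in DESeq2, and SNHG16 was -0.0062 and -0.021 at 48 h and 0.012 and 0.0056 at 72 h. SNHG15 at 48 h was -0.036 with upper-quartile factors and -0.013 with TMM on protein-coding genes. SNHG16 at 48 h was -0.052 and -0.029 with these, -0.0070 with RLE factors, -0.0024 in DESeq2 and -0.00054 with a 1 CPM filter. GAS5 at 72 h was 0.010 with no filter. By effective length SNHG5 differed from No Dox by -0.887 nt at 24 h and 1.68 nt at 48 h, and SNHG16 by 2.05 nt at 48 h. The cause of these turns was not tested.

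Leaving out 1 library gave a range of 0 to 1 hosts called lower at 72 h and at 72 h against 24 h. By adjusted p it gave 0 to 2 higher at 48 h against 24 h, 1 to 4 at 72 h against 48 h and 1 to 3 at 72 h against 24 h. SNHG15 ranged from -0.0026 to 0.069 at 48 h and -0.092 to 0.017 at 72 h, SNHG16 from -0.022 to 0.031 at 48 h and GAS5 from -0.072 to 0.032 at 72 h. At 72 h SNHG12 ranged from -0.24 to -0.07 and SNHG16 from -0.21 to -0.03, each past adjusted p in 1 of 12 fits.

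Samples with the same replicate number did not deviate together (18 pairs, r from -0.205 to 0.320, 3 over 0.1), so the numbers were not taken as pairing. With a replicate block, 1 host was called higher at 24 h and 1 lower at 72 h, as without it, and 3 instead of 2 passed adjusted p as higher at 48 h. No log2 fold change of the 37 compared moved by more than 0.013.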

Other observations

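SNHG1 was set against all genes of at least 10 CPM after its values had been seen. Its log2 CPM over the 12 libraries was most like that of CTPS1, the CTP synthase gene (Pearson r = 0.999), followed by PSMD2, a proteasome subunit gene (r = 0.997), and TSR1, a ribosome maturation factor gene (r = 0.996). The libraries of a group share their treatment, so these values describe the 4 group levels more than 12 independent points.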
